A study of Mus musculus with 6 samples.

Results

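The lysosome is the acidic compartment in which cells break down proteins, sugars and lipids, and 45 genes of its enzymes, membrane proteins and proton pump were followed in mouse embryonic fibroblasts (MEF) after confined migration. The genes were picked by symbol for their known function, but with earlier results of these data known. They were 9 cysteine cathepsins and legumain, 3 other proteases, 10 glycosidases and sulfatases, and 7 lipid hydrolases, activators and cholesterol exporters. The rest were 8 membrane proteins and progranulin, 5 subunits of the vacuolar proton pump (V-ATPase) and 3 transcription factors of the MiT/TFE family. All 45 were found among the 55335 genes counted, and 42 of them were among the 15881 genes with enough counts to be tested. RNA-seq had been performed on WT MEF that were parental (Ctrl) and on WT MEF that had been seeded on a transwell membrane with 3 μm pores and had reached the other side by 15 h (Confine). The labels give the same culture medium with serum for both groups, but the study's general transwell method seeds cells in serum-free medium above medium with serum, and whether this held for these samples is not stated. The Confine group was formed by the cells that passed, so passage itself, selection of the cells able to pass, the stay on the membrane and any difference in serum cannot be told apart. Confine replicates 1 and 2 carry the same count for each of the 55335 genes, so they entered as a single library, called Confine replicate 2, which leaves 3 Ctrl and 2 Confine libraries. The labels do not say that the libraries came from separate cultures, so p-values measure only the spread between libraries, which may be technical.

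Lysosomal enzymes are made in the endoplasmic reticulum, most are tagged with mannose 6-phosphate, and they become active after delivery to the acidic lumen that the V-ATPase maintains. Heavily glycosylated membrane proteins such as LAMP1 line the organelle, and NPC2 and NPC1 hand cholesterol out of it. Many of the genes carry a CLEAR element in their promoters, a sequence with an E-box at its centre that TFEB, TFE3 and MITF bind, which allows lysosomal genes to be controlled as a group.

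Ctrl libraries held between 22287210 and 27853805 counts and Confine libraries 27290138 and 32537550. Levels are given as normalized CPM (counts scaled to a common library total with edgeR's TMM factors), where 3 counts correspond to 0.101 to 0.128 CPM. The fibroblast label was checked on markers: 9 of 10 fibroblast markers passed the filter on low counts and summed to 9042 to 10002 CPM in Ctrl and 16168 to 16878 CPM in Confine, while Thy1 was near 0. Of these 9, Col1a1, Col3a1, Pdgfra, Vim and Fn1 were higher in Confine. No marker of 6 epithelial and 5 endothelial genes passed the filter, and neither list summed to more than 0.718 CPM in any library. In bulk RNA, fewer cells of a type and less RNA per cell cannot be told apart.

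The lysosome genes did not move as a group. Of the 42 tested genes, 10 were higher in Confine (23.8%), 2 were lower (4.76%) and 30 did not pass the threshold of an adjusted p under 0.05 (edgeR's quasi-likelihood test, Benjamini-Hochberg adjustment over all 15881 genes). Over all tested genes 23.0% passed in either direction, 12.8% as higher and 10.2% as lower, against 28.6% of the lysosome genes. The median log2 fold change of the 42 was 0.01, beside -0.0021 over all genes, and 21 of them were positive and 21 negative. Scaling by library size alone moved the median of all genes to -0.21 and gave 6 lysosome genes higher and 8 lower. The count of higher genes was 5 without Ctrl replicate 1 and 5 without Confine replicate 3, and the count of lower genes was 4 without Ctrl replicate 2, 1 without Ctrl replicate 3, 1 without Confine replicate 2 and 0 without Confine replicate 3.

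The genes that were higher were soluble enzymes and their helpers in the lumen, with Cd68 as the one membrane protein among them. They were Ctsf, Ctsl, Ctsb and Ctsk among the cysteine cathepsins, Ctsa among the other proteases, Naglu and Gla among the glycosidases, Npc2 and Psap among the lipid-handling proteins, and Cd68. Smpd1 and Gpnmb were lower. No V-ATPase subunit and no MiT/TFE factor among the 42 passed the test. Only Cd68 and Ctsf also passed the cutoff of an absolute log2 fold change above 1.5, which 4.89% of all tested genes passed as higher and 3.11% as lower, and no lysosome gene passed it as lower. In 28 of the 42 genes both Confine libraries lay outside the range of the 3 Ctrl libraries, above it in 15 and below it in 13. This was so in 49.5% of all tested genes.

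**Figure D1:**
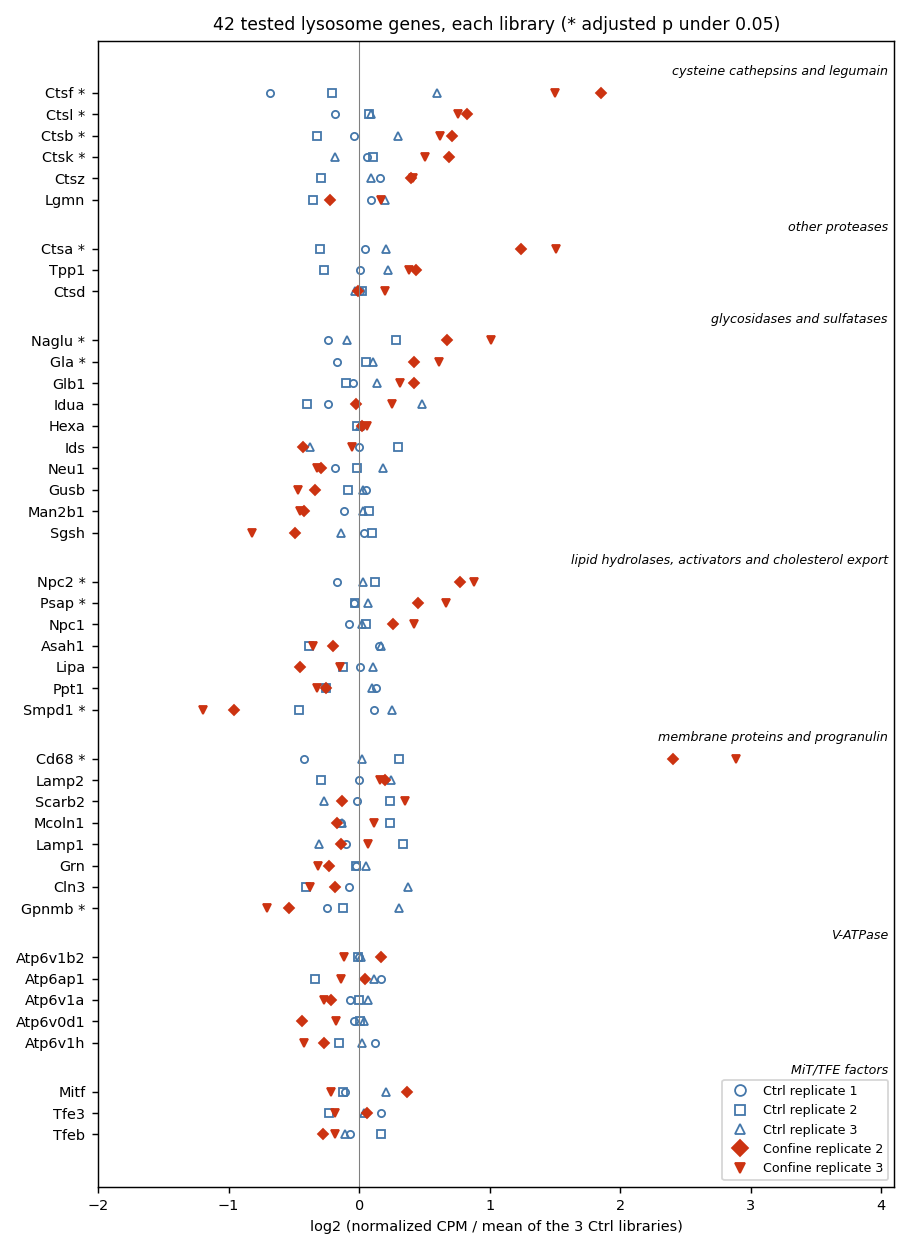
Each row is 1 of the 42 tested lysosome genes, grouped by role, and each mark is 1 library (open blue, 3 Ctrl; filled red, 2 Confine) placed by the log2 of its normalized CPM over the mean of the Ctrl libraries; an asterisk marks an edgeR adjusted p under 0.05. Cd68, Ctsf and Ctsa stand far to the right and Smpd1 to the left, while the V-ATPase and MiT/TFE rows stay near 0.

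Promoters were searched for the E-box because the MiT/TFE factors that bind this element are themselves among the genes followed. Windows are shown for genes picked by hand from those with an E-box, and not by nearness to the start site. Ctsl, Glb1, Lgmn and Sgsh also held an E-box and are not shown. Their log2 fold changes were 0.79, 0.37, -0.02 and -0.64. RefSeq promoters (GRCm38.p6, 250 bases before to 50 after the start of each transcript) were found for 39 of the 45 genes. Those of Asah1, Atp6v1h, Ctsb, Atp6v1b2, Npc1 and Ctsh were not in the table used. The letters searched were the E-box CACGTG and the CLEAR core TCACGTGA, which read the same on both strands, and every CLEAR core contains an E-box. In the windows printed here, 5′ to 3′ on the strand of the gene, capitals mark the CLEAR core or, where only that matched, the E-box. Positions count from the RefSeq start site, with no base numbered 0. The first 4 genes were higher in Confine and the other 6 did not pass the test.
Ctsa, chr2:164833723-164833782, plus strand: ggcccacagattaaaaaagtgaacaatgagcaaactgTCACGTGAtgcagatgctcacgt
Gla, chrX:134601168-134601227, minus strand: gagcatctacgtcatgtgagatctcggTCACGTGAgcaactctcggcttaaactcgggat
Naglu, chr11:101069994-101070053, plus strand: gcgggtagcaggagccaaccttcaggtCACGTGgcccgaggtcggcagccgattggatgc
Ctsf, chr19:4855059-4855118, plus strand: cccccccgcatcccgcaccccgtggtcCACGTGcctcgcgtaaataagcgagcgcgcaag
Ctsd, chr7:142387894-142387953, minus strand: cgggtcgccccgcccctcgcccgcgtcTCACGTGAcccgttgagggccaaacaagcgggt
Mcoln1, chr8:3500446-3500505, plus strand: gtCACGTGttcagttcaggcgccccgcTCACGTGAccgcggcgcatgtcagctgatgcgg
Atp6v0d1, chr8:105566055-105566114, minus strand: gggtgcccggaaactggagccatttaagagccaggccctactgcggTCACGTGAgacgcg
Atp6v1a, chr16:44139359-44139418, minus strand: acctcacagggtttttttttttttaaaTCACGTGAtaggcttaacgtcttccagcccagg
Cln3, chr7:126583326-126583385, minus strand: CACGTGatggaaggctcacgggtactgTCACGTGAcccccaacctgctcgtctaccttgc
Lamp1, chr8:13159089-13159148, plus strand: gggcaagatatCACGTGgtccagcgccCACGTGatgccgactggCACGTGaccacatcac

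The E-box was in the promoters of 14 of the 39 genes (35.9%), against 8.09% of 27025 genes in the table, 7.15% of its 32851 promoters and 11.6% of 10303 genes that were also tested. The CLEAR core was in 7 of the 39 (17.9%), against 1.12% of all genes and 2.23% of tested genes. Lamp1, which encodes the most familiar lysosomal membrane protein, had 4 E-boxes within 61 bases of its start, the last of which runs past the end of its window. Ctsa had a CLEAR core on either side of its start site, with E-boxes beginning at positions -12 and 6, and the second is cut by the end of its window. Gla had a further CLEAR core whose E-box begins at position -227, upstream of its window.

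Some genes with the E-box passed the test as higher, others did not pass, and none was lower. Over all tested genes 12.8% were higher and 10.2% lower. Of the 14, Ctsf, Ctsa, Naglu, Ctsl and Gla were higher in Confine and 9 did not pass, and their median log2 fold change was 0.04. Of the 25 without it, 4 were higher, 2 were lower, 17 did not pass and 2 were not tested, with a median of -0.04. Of the 7 genes with the CLEAR core, Ctsa and Gla were higher and Ctsd, Mcoln1, Cln3, Atp6v1a and Atp6v0d1 did not pass. A match describes letters in the window and not a bound factor.

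**Figure D2:**
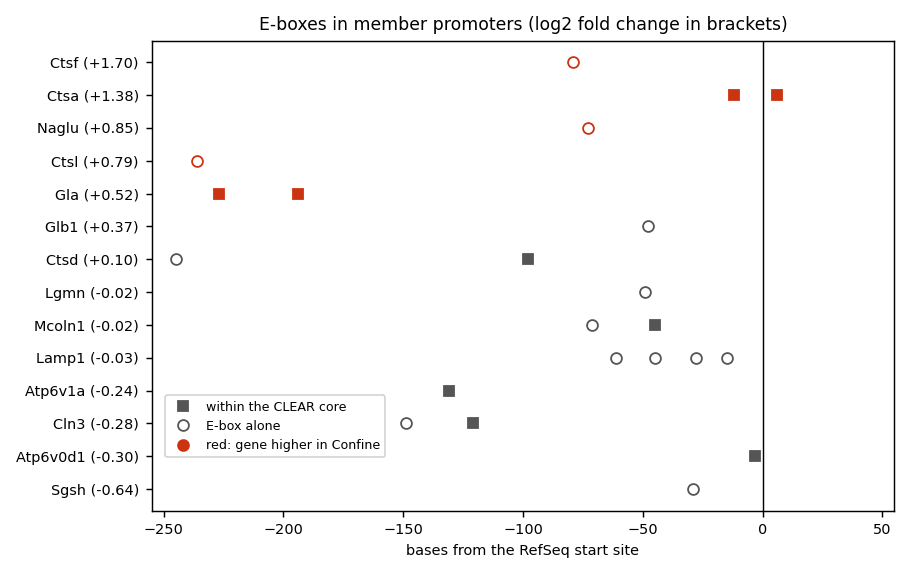
Each mark is an E-box in the promoter of 1 of the 14 genes that hold it, placed by the distance of its first base from the RefSeq start site in bases; squares lie within a CLEAR core, circles are an E-box alone, and red marks genes higher in Confine. The log2 fold change stands in brackets, and the square marks occur both in Ctsa at 1.38 and in Atp6v0d1 at -0.30.

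Among the cysteine cathepsins and legumain, 4 of the 6 tested genes were higher in Confine (66.7%) and none was lower. Over all tested genes 12.8% were higher and 10.2% lower. Ctsf, which encodes cathepsin F, lies on chromosome 19 (GRCm38, 4855130 to 4860918) and had 41, 52 and 81 counts in Ctrl and 244 and 162 in Confine. Both Confine libraries lay well above Ctrl, although Ctsf was among the least abundant of the genes tested. Its level went from 2.28 ± 1.05 CPM (SD, n = 3) to 7.34 ± 1.28 CPM (SD, n = 2), with a log2 fold change of 1.70 (SE 0.33, edgeR adjusted p = 0.000751). The value lay under the fold cutoff without Ctrl replicate 1 (log2 fold change 1.44), with library size alone (1.49) and with the replicate block (1.47).

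Ctsl, Ctsb and Ctsk rose by less. Ctsl, which encodes cathepsin L, a broad endopeptidase of the lumen, had 18842, 20635 and 18570 counts in Ctrl and 38836 and 31423 in Confine. The groups were separate, at 740.2 ± 77.4 CPM in Ctrl (SD, n = 3) and 1279.9 ± 45.6 CPM in Confine (SD, n = 2), and the log2 fold change was 0.79 (SE 0.18, edgeR adjusted p = 0.00272). Ctsb, which encodes cathepsin B, had the most counts of any gene followed, at 985.5, 811.1 and 1245.0 CPM in Ctrl and 1661.5 and 1557.1 CPM in Confine. Its log2 fold change was 0.67 (SE 0.19, edgeR adjusted p = 0.0177), and the adjusted p from edgeR was 0.0524 without Ctrl replicate 1, 0.0925 without Confine replicate 2 and 0.0547 without Confine replicate 3. Exons of Ctsb share 774 bases with the antisense gene Fdft1, whose mean count was 5423.0 against 33531.0 for Ctsb. The strand setting of the counting is not given, so part of the Ctsb value is uncertain. Ctsk encodes the collagen-degrading cathepsin K that is best known from osteoclasts. It stood at 10.9, 11.2 and 9.19 CPM in Ctrl and 16.8 and 14.8 CPM in Confine, with a log2 fold change of 0.60 (SE 0.21, edgeR adjusted p = 0.0422). That call was lost in 4 of the 5 fits that left out a library, with edgeR adjusted p from 0.0986 without Ctrl replicate 1 to 0.254 without Confine replicate 2, and values of 0.135 without Ctrl replicate 3 and 0.119 without Confine replicate 3. Beside Ctsk, the 7 other osteoclast markers were not tested for lack of counts, and Calcr, Dcstamp and Atp6v0d2 had no count in any library. Acp5 had 0 counts in every Ctrl library and 6 and 11 in Confine. Oscar went the other way, with 8, 6 and 5 counts in Ctrl and 0 and 1 in Confine. Ocstamp and Tnfrsf11a had at most 8 counts in any library.

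The other 5 genes of this group did not pass or were not tested. Ctsz, a carboxypeptidase that had the highest level per kilobase of the longest principal transcript in Ctrl, had 544.4, 397.6 and 517.1 CPM there. In Confine it had 639.1 and 646.6 CPM. Its Confine values were above all Ctrl values, but the log2 fold change of 0.40 had an edgeR adjusted p of 0.131. Lgmn, which encodes the asparaginyl endopeptidase that trims cathepsins, overlapped between the groups at 83.3 to 122.2 CPM in Ctrl and 90.9 to 119.3 CPM in Confine. Ctsc, the dipeptidyl peptidase that activates granule proteases, had 0 counts in every library, Ctss, a cathepsin of antigen-presenting cells, had at most 2, and Ctsh, an aminopeptidase, had 2, 0 and 2 counts in Ctrl and 3 and 6 in Confine.

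Of the other proteases, Ctsa was higher. It encodes cathepsin A, the serine carboxypeptidase also called protective protein, which holds beta-galactosidase and neuraminidase in a stable complex. Ctsa had 8221, 5929 and 7480 counts in Ctrl and 19224 and 19715 in Confine, a wide separation for a gene of this abundance. Its level rose from 275.4 ± 47.6 CPM (SD, n = 3) to 716.1 ± 94.3 CPM (SD, n = 2), a log2 fold change of 1.38 (SE 0.19, edgeR adjusted p = 2.89e-05). Without Confine replicate 2 it was 1.51, which is past the fold cutoff. Ctsa lies on chromosome 2 (GRCm38, 164832873 to 164841032). The partners of the complex did not pass: Glb1, the beta-galactosidase, had a log2 fold change of 0.37 (edgeR adjusted p = 0.154) and Neu1, the neuraminidase, of -0.31 (edgeR adjusted p = 0.262). Exons of Ctsa share 495 bases with the antisense gene Pltp, whose mean count was 1738.8 against 12113.8 for Ctsa, and the strand setting of the counting is not given in the sources used here. Tpp1, a tripeptidyl peptidase, stood at 64.2 to 90.2 CPM in Ctrl and 100.7 to 104.7 CPM in Confine, with a log2 fold change of 0.41 (edgeR adjusted p = 0.129). Ctsd, the aspartic protease cathepsin D, was nearly level at 552.7 to 575.2 CPM in Ctrl and 562.7 and 647.1 CPM in Confine, with a log2 fold change of 0.10 (SE 0.17).

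**Figure D3:**
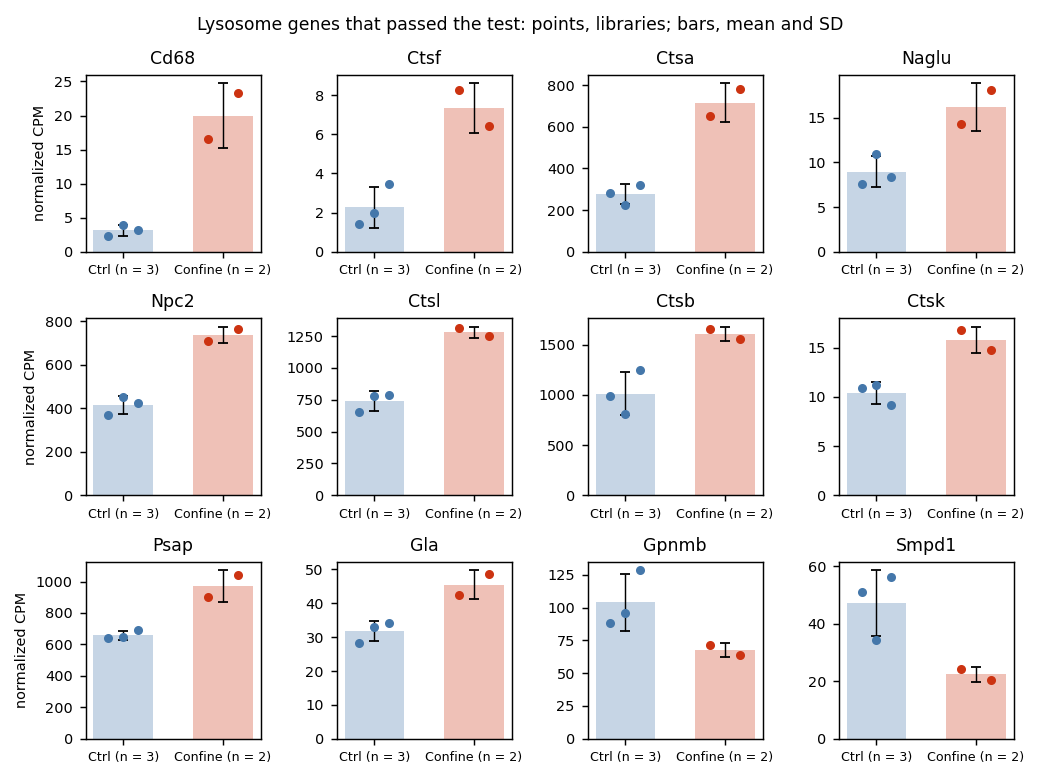
Normalized CPM of the 12 lysosome genes that passed the test; points are libraries, bars the mean and whiskers the SD of 3 Ctrl libraries (blue) and 2 Confine libraries (red), each panel starting at 0. In all 12 panels the Confine points lie outside the range of the Ctrl points, from Ctsf at 2.28 CPM to Ctsb at 1013.9 CPM in Ctrl.

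Glycosidases and sulfatases take apart the sugar chains of glycolipids and glycosaminoglycans, and 2 of the 10 tested were higher (20.0%) and none lower. The shares over all tested genes were 12.8% and 10.2%. Naglu, which removes N-acetylglucosamine from heparan sulfate, had 220, 289 and 198 counts in Ctrl and 423 and 456 in Confine. The Confine libraries were clear of the Ctrl range, at 8.98 ± 1.73 CPM (SD, n = 3) against 16.2 ± 2.7 CPM (SD, n = 2), with a log2 fold change of 0.85 (SE 0.22, edgeR adjusted p = 0.00918). Without Ctrl replicate 1 the edgeR adjusted p was 0.0523, and without Confine replicate 3 it was 0.166. Gla, the alpha-galactosidase A that clears globotriaosylceramide, stood at 28.3, 32.9 and 34.1 CPM in Ctrl and 42.5 and 48.6 CPM in Confine. Its log2 fold change of 0.52 (SE 0.18, edgeR adjusted p = 0.0474) was the closest to the threshold among the calls. The edgeR adjusted p of Gla was 0.215 without Ctrl replicate 1, 0.0593 without Ctrl replicate 3, 0.122 without Confine replicate 2 and 0.345 without Confine replicate 3.

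Sgsh, Man2b1, Gusb and Neu1 of the same class had both Confine libraries below Ctrl without passing the test. Sgsh, the sulfamidase that acts on heparan sulfate like Naglu, had 248, 236 and 178 counts in Ctrl and 176 and 119 in Confine, with a log2 fold change of -0.64 (SE 0.24, edgeR adjusted p = 0.0626). Man2b1, the lysosomal alpha-mannosidase, stood at 35.8 to 40.8 CPM in Ctrl and 28.3 to 28.9 CPM in Confine (log2 fold change -0.44), and Gusb, the beta-glucuronidase, at 80.3 to 88.4 CPM in Ctrl and 61.6 to 67.5 CPM in Confine (log2 fold change -0.40). Neu1 stood at 37.3 to 48.0 CPM in Ctrl and 33.8 to 34.6 CPM in Confine. With library size alone, Sgsh (log2 fold change -0.85), Man2b1 (-0.65) and Gusb (-0.61) passed as lower, and without Ctrl replicate 2 Gusb passed with -0.45. The log2 fold changes of Hexa, the alpha subunit of beta-hexosaminidase, and of Idua and Ids, both of which act on dermatan and heparan sulfate, were 0.04, 0.12 and -0.23. Hexa was the least variable of these 3 genes, at 121.8 to 124.2 CPM in Ctrl and 124.7 to 128.6 CPM in Confine. Idua ranged from 5.93 to 10.9 CPM in Ctrl and Ids from 15.9 to 25.5 CPM, and both groups overlapped. The class as a whole summed to 437.9 ± 13.7 CPM in Ctrl (SD, n = 3) and 438.4 ± 3.2 CPM in Confine (SD, n = 2), a ratio of 1.0 with the TMM factors. As a share of all counts, without those factors, the class took 0.0443% to 0.0478% in Ctrl and 0.0397% to 0.0407% in Confine, so both Confine libraries were then below Ctrl.

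Lipid-handling genes moved in both directions. Npc2, the soluble cholesterol carrier of the lumen, had 10726, 11991 and 9966 counts in Ctrl and 21022 and 19240 in Confine. The groups were far apart, at 415.9 ± 41.9 CPM (SD, n = 3) and 737.1 ± 38.0 CPM (SD, n = 2), and the log2 fold change was 0.83 (SE 0.18, edgeR adjusted p = 0.00188). Npc1, the membrane protein that receives cholesterol from NPC2, stood at 13.0 to 14.2 CPM in Ctrl and 16.4 to 18.3 CPM in Confine. Both Confine libraries lay above Ctrl, but the log2 fold change of 0.34 had an edgeR adjusted p of 0.241. Npc1 shares 511 exonic bases with the antisense gene Rmc1, whose mean count was 786.4 against 404.8 for Npc1, so its value is uncertain. Psap, whose product is cut into the saposins that help hydrolases reach sphingolipids, stood at 639.9, 644.7 and 690.4 CPM in Ctrl and 898.6 and 1043.0 CPM in Confine. Its log2 fold change was 0.56 (SE 0.17, edgeR adjusted p = 0.0253), and the edgeR adjusted p was 0.0946 without Ctrl replicate 1, 0.0683 without Ctrl replicate 3 and 0.194 without Confine replicate 3.

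Smpd1 went the other way. It encodes acid sphingomyelinase, which turns sphingomyelin into ceramide, and lies on chromosome 7 (GRCm38, 105554360 to 105558389). Smpd1 had 1480, 911 and 1323 counts in Ctrl and 719 and 519 in Confine, so every Confine library was below every Ctrl library. The level fell from 47.3 ± 11.4 CPM (SD, n = 3) to 22.4 ± 2.61 CPM (SD, n = 2), a log2 fold change of -1.07 (SE 0.22, edgeR adjusted p = 0.00139). Without Confine replicate 3 the log2 fold change was -0.96 and the edgeR adjusted p 0.0548. Asah1, the acid ceramidase that acts on the product of SMPD1, overlapped between the groups at 101.9 to 149.4 CPM in Ctrl and 104.1 to 116.0 CPM in Confine, with a log2 fold change of -0.27. Without Ctrl replicate 2, Asah1 passed as lower with -0.44 (edgeR adjusted p = 0.0467). Lipa, which hydrolyses cholesteryl esters and triglycerides, and Ppt1, which removes palmitate from proteins, both had log2 fold changes of -0.29 and did not pass (edgeR adjusted p = 0.291 and 0.299).

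Cd68 had the largest fold change of the genes followed. Its product is a heavily glycosylated membrane protein of late endosomes and lysosomes that is widely used as a macrophage marker. The gene lies on chromosome 11 (GRCm38, 69664213 to 69666153). Cd68 had 68, 103 and 75 counts in Ctrl and 491 and 588 in Confine, with a wide gap between the groups. The level rose from 3.14 ± 0.773 CPM (SD, n = 3) to 20.0 ± 4.78 CPM (SD, n = 2), a log2 fold change of 2.67 (SE 0.25, edgeR adjusted p = 3.94e-07) or 6.35-fold. Of 19 macrophage and leukocyte markers, Cd68 included, 6 were tested, and Cd68, Cd14 and Csf1r were higher while Lyz2 was lower with a log2 fold change of -2.64. Adgre1, Tyrobp, C1qa, C1qb and C1qc had 0 counts in all 5 libraries, and Ptprc, the common leukocyte antigen, had 2 counts in Ctrl replicate 1 and none elsewhere. The 19 summed to 16.2 to 18.7 CPM in Ctrl and 37.6 to 42.6 CPM in Confine, and Cd68 and Cd14 made up most of the Confine sum. Cd68 itself gave 2.35 to 3.89 CPM in Ctrl and 16.6 and 23.3 CPM in Confine. Cd14 gave 7.52 to 10.6 CPM in Ctrl and 17.3 and 15.4 CPM in Confine. The sum is therefore not separate from the rise of Cd68. Per kilobase of transcript, Cd68 stayed far below the abundant LAMP proteins, at 16.2 CPM in Confine against 161.6 for Lamp1.

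The structural membrane proteins were nearly level. Lamp1 stood at 342.7, 465.0 and 297.8 CPM in Ctrl and 334.7 and 385.9 CPM in Confine, and Lamp2 at 449.4, 366.9 and 532.7 CPM in Ctrl and 515.7 and 501.4 CPM in Confine. Both overlapped between the groups, with log2 fold changes of -0.03 (SE 0.20) and 0.18 (SE 0.19). Scarb2, which carries glucocerebrosidase to the lysosome, and Mcoln1, the calcium channel TRPML1, had values of 0.13 and -0.02 on the log2 scale, and Cln3, a membrane protein lost in a juvenile storage disease, of -0.28. In none of these 5 genes were the groups separate. Grn, which encodes progranulin, the precursor of the lysosomal granulins, stood at 277.5 to 292.2 CPM in Ctrl and 226.6 to 241.2 CPM in Confine. The Confine libraries of Grn were below Ctrl, but the log2 fold change of -0.27 did not pass (edgeR adjusted p = 0.289), except with library size alone (-0.48).

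Gpnmb, a transmembrane glycoprotein of melanosomes and lysosomes, was lower. It had 2543, 2529 and 3025 counts in Ctrl and 2121 and 1603 in Confine. The level went from 104.0 ± 21.7 CPM (SD, n = 3) to 67.7 ± 5.66 CPM (SD, n = 2), a log2 fold change of -0.62 (SE 0.20, edgeR adjusted p = 0.0318). The call was lost without Ctrl replicate 3 (edgeR adjusted p = 0.135), without Confine replicate 2 (0.118) and without Confine replicate 3 (0.26). Among 8 melanocyte markers, Gpnmb and Mlana were lower, Mlana from 26, 28 and 11 counts in Ctrl to 3 and 1 in Confine. Pmel (log2 fold change 0.37) and Mitf (0.11) did not pass, and both Confine libraries of Pmel were above Ctrl. Dct had 0 counts in Ctrl and 1 and 2 in Confine, and Tyr, Tyrp1 and Sox10 had 0 counts in every library.

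The V-ATPase pumps protons into the lysosome through a membrane sector, V0, driven by a cytosolic ATP-hydrolysing sector, V1. None of its 5 genes followed passed the test. Atp6v1a, the catalytic subunit of V1, stood at 163.7, 171.5 and 179.9 CPM in Ctrl and 148.0 and 142.5 CPM in Confine, and the regulatory subunit gene Atp6v1h at 55.8, 46.2 and 52.1 CPM in Ctrl and 42.6 and 38.4 CPM in Confine. Atp6v0d1, which joins the sectors, stood at 147.1, 152.3 and 155.1 CPM in Ctrl and 112.0 and 133.6 CPM in Confine. In these 3 genes both Confine libraries were below Ctrl, by small amounts: the log2 fold changes were -0.24, -0.34 and -0.30, with edgeR adjusted p of 0.357, 0.201 and 0.248. With library size alone Atp6v1h (-0.55) and Atp6v0d1 (-0.51) passed as lower. Atp6v1b2, the other nucleotide-binding subunit of V1, and Atp6ap1, an accessory protein of assembly, overlapped between the groups with log2 fold changes of 0.03 and -0.04. The summed level of the 5 genes was 743.4 to 863.5 CPM in Ctrl and 721.4 to 772.7 CPM in Confine.

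The MiT/TFE factors, whose known motif was searched in the promoters above, also did not pass. Tfeb, the factor best known as a driver of lysosome genes, had 289, 312 and 229 counts in Ctrl and 257 and 233 in Confine. Its level was 9.74 to 11.8 CPM in Ctrl and 8.68 to 9.25 CPM in Confine, slightly lower in both Confine libraries, with a log2 fold change of -0.23 (SE 0.22, edgeR adjusted p = 0.501). Tfe3 was the most abundant per kilobase of the 3 in Ctrl, at 18.2 CPM against 4.58 for Tfeb and 1.85 for Mitf. The log2 fold changes of Tfe3 and Mitf were -0.05 (SE 0.19) and 0.11 (SE 0.24), and their groups overlapped. These factors are controlled largely by where their protein lies in the cell, which RNA counts do not measure.

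**Figure D4:**
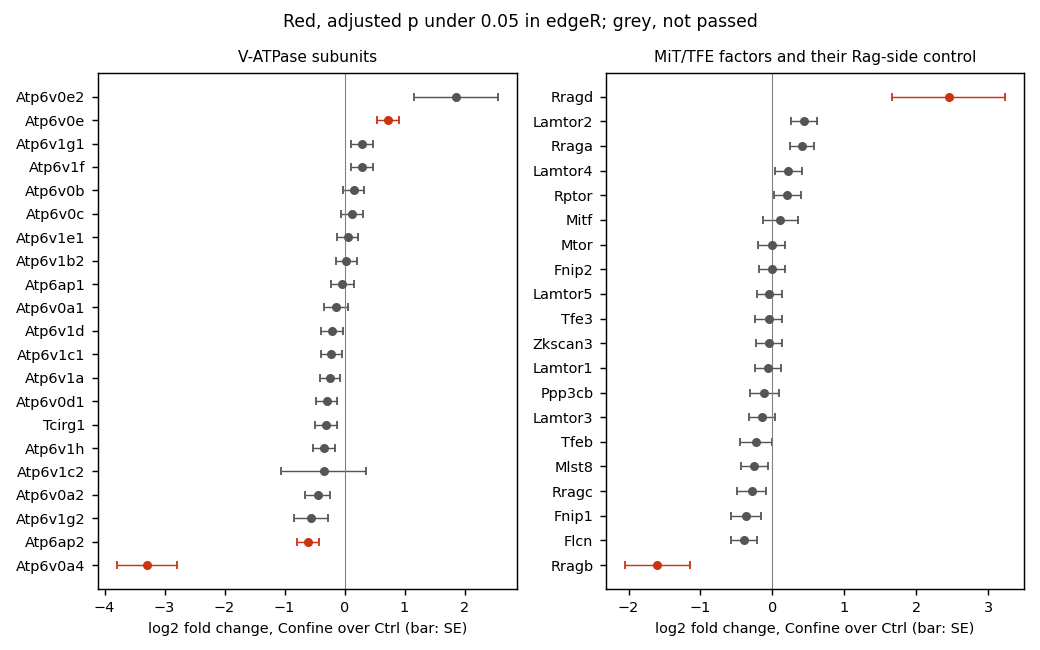
Log2 fold change of Confine over Ctrl with its SE (bars) for 21 tested V-ATPase subunits and accessory proteins (left) and 20 tested MiT/TFE factors and genes of their Rag-side control (right); red marks an edgeR adjusted p under 0.05. Most points lie within 1 unit of 0, and Atp6v0a4 at -3.29 and Rragd at 2.45 lie farthest out, both from few counts.

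Levels were compared between genes per kilobase of the longest principal transcript, and the ranks hold for this length only. In Ctrl the highest were Ctsz at 337.5 ± 54.2 CPM per kilobase, Ctsd at 265.9 ± 5.44, Psap at 247.8 ± 10.5 and Ctsb at 213.8 ± 46.0 (SD, n = 3), and the values of Psap and Ctsb were within 1 SD of each other. In Confine the order was Ctsz at 446.1 ± 3.69, Psap at 365.4 ± 38.4, Ctsb at 339.3 ± 15.6 and Ctsd at 284.4 ± 28.1 CPM per kilobase (SD, n = 2), where Psap and Ctsb again lay within 1 SD. By these means Ctsd stood above Psap and Ctsb in Ctrl and below them in Confine. The Ctrl order did not hold in every library, because in Ctrl replicate 3 Ctsb was slightly above Ctsd. It also depended on the length used. Which transcripts were in use was not measured, and a shorter one would raise the value of its gene. Ctsl, at 740.2 CPM in Ctrl, was divided by 6.168 kilobases and Npc2, at 415.9 CPM, by 3.299, so their ranks are uncertain. Per kilobase of all exons merged, the Ctrl means of Ctsd and Psap were 240.6 and 239.9 CPM. The lowest of the tested genes in Ctrl were Ctsf at 1.15, Mitf at 1.85 and Sgsh at 1.92 CPM per kilobase.

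The summed level of all 45 genes was 7201.6, 6854.3 and 7849.5 CPM in Ctrl and 9458.7 and 9700.8 CPM in Confine, 1.31 times as high in Confine. These genes took 0.742% to 0.828% of all counts in Ctrl and 0.86% to 0.895% in Confine. Ctsb and Ctsl were part of this difference: without Ctsb and Ctsl the ratio was 1.21. As shares of all counts, without the TMM factors, the genes other than Ctsb and Ctsl overlapped between the groups. They took 0.57% to 0.613% in Ctrl and 0.59% and 0.636% in Confine. By role, the ratio was 1.55 for the cysteine cathepsins, 1.55 for the other proteases and 1.4 for the lipid-handling genes, and 0.986 for the membrane proteins, 0.91 for the V-ATPase and 0.961 for the MiT/TFE factors. Single genes weigh heavily in these sums. Of the other proteases, at 918.2 CPM in Ctrl and 1423.8 CPM in Confine, Ctsa made up 275.4 and 716.1 CPM. Among the 7 lipid-handling genes, 4 had negative log2 fold changes, and the median was -0.27. The ratios by role also rest on the TMM factors. As shares of all counts, the glycosidases, the membrane proteins, the V-ATPase and the MiT/TFE factors were lower in both Confine libraries than in every Ctrl library. The sums carry no test.

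**Figure D5:**
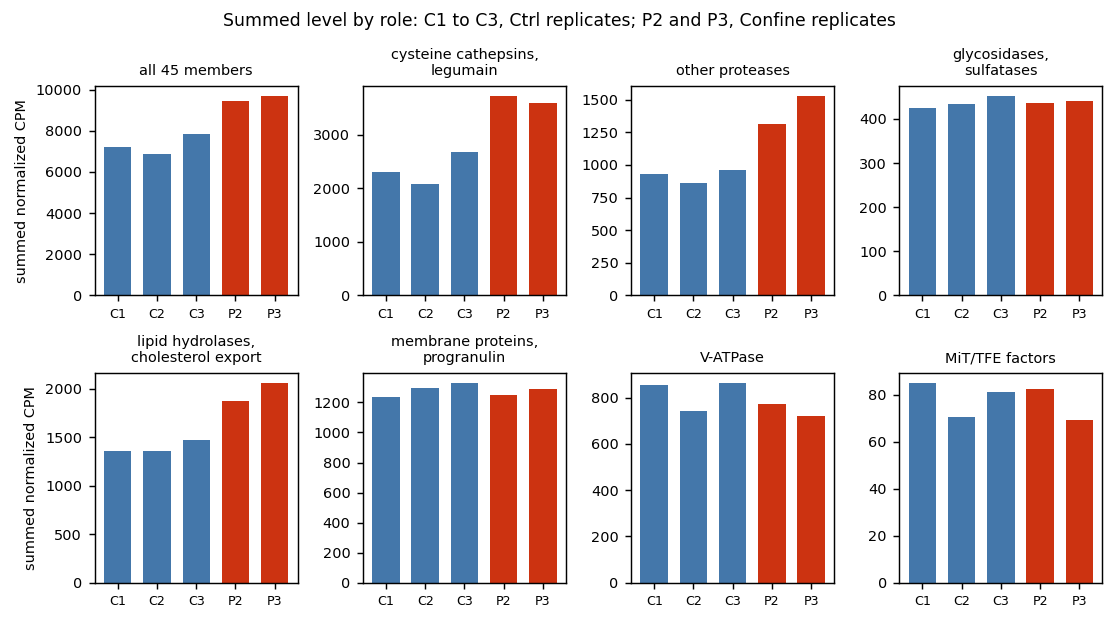
Summed normalized CPM of the lysosome genes in each library, for all 45 genes and for each role; C1 to C3 are the Ctrl replicates (blue) and P2 and P3 the Confine replicates (red), and each axis starts at 0. The Confine bars of the cathepsins, the other proteases and the lipid-handling genes are above all Ctrl bars, while those of the glycosidases, the membrane proteins and the MiT/TFE factors overlap with Ctrl.

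Another 121 genes of the lysosome, written down by function but also with earlier results of these data known, placed the 45 in context. Of the 106 tested, 16 were higher (15.1%) and 7 lower (6.6%), beside 12.8% and 10.2% of all genes. The lumenal hydrolases and activators were the list with the most higher genes, 9 of 30 with none lower, whereas among the soluble enzymes above Smpd1 was lower. Hyal1, a hyaluronidase, had 38, 52 and 76 counts in Ctrl and 510 and 484 in Confine, with a log2 fold change of 3.08 (SE 0.29, edgeR adjusted p = 3.8e-07). The value for Cd68 (2.67, SE 0.25) lay within 2 SE of it. Ctsw and Ctso, both cysteine cathepsins outside the 45, had log2 fold changes of 1.99 (edgeR adjusted p = 1.09e-05) and 1.00 (edgeR adjusted p = 0.00161), and Cpq, a carboxypeptidase, of 0.98 (edgeR adjusted p = 0.00114). Slc11a1, a metal transporter of phagocyte lysosomes, had 10, 30 and 22 counts in Ctrl and 98 and 100 in Confine, a log2 fold change of 2.18 (edgeR adjusted p = 0.000698). Plbd2, Pla2g15 and Hyal2, placed in the list of lumenal hydrolases and activators, were also higher, with log2 fold changes from 0.75 for Hyal2 to 0.95 for Plbd2.

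The other lists held calls in both directions, at shares near or below those over all tested genes, 12.8% higher and 10.2% lower. The shares higher and lower were 9.09% and 9.09% for mannose 6-phosphate tagging and sorting, and 6.25% and 12.5% for the V-ATPase subunits. For Rag, Ragulator and folliculin control they were 5.88% and 5.88%. Of 32 tested membrane proteins, channels and transporters, 4 were higher (12.5%) and 3 lower (9.38%). The higher ones were Slc11a1, given above, Litaf (log2 fold change 0.83), Cd63 (0.70) and Sidt2 (0.54). Cd63 was abundant, at a mean of 2497.3 CPM in Ctrl and 4045.1 CPM in Confine. The lower ones were Slc36a1, a proton-coupled amino acid transporter (log2 fold change -0.79), Clcn7, the chloride and proton exchanger (-0.64), and Mfsd1 (-0.62). Of 11 genes of mannose 6-phosphate tagging and sorting, Igf2r, the large mannose 6-phosphate receptor, was higher at 0.67 and Nagpa, the enzyme that uncovers the tag, was lower at -0.78. Of 16 further V-ATPase subunits, Atp6v0e was higher at 0.72, and Atp6ap2 (-0.61) and Atp6v0a4 were lower. Atp6v0a4, a subunit isoform typical of kidney, had 67, 46 and 58 counts in Ctrl and 7 and 5 in Confine. Of 17 genes of Rag, Ragulator and folliculin control of the MiT/TFE factors, Rragd, a Rag GTPase, was higher with 5, 3 and 0 counts in Ctrl and 16 and 15 in Confine, and Rragb was lower with 65, 43 and 65 counts in Ctrl and 13 and 26 in Confine. Atp6v0e, Atp6v0a4, Rragd and Rragb were chosen for naming after their values were seen.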

How the data were processed

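RNA-seq was performed on MEF in 2 groups. The authors purified polyadenylated RNA, made dUTP libraries that keep the strand, and deposited raw counts per gene, not normalized. Submitters' processing notes name Trim Galore 0.6.10, HISAT2 2.1.0, SAMtools 1.5, featureCounts and mm10; the annotation and strand setting are not given in the sources used here. Gene symbols came from GENCODE M21 (GRCm38), which held 54587 of the 55335 identifiers with their version and 55154 without it.

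Genes passing edgeR's filterByExpr were normalized by TMM (factors 1.04, 1.08 and 1.06 in Ctrl, 0.91 and 0.924 in Confine) and tested over 3 Ctrl and 2 Confine libraries by edgeR 4.0.16 in R 4.3.3 (quasi-likelihood test, 3 residual degrees of freedom, Benjamini-Hochberg adjustment over 15881 genes). The steps were checked on simulated counts. Alternatives were RLE factors, library size alone, other filters, DESeq2 1.42.0, limma-voom (limma 3.58.1), glmTreat, a replicate block, the repeated columns as 2 libraries, and leaving out each library. Transcript copies were searched with blastn 2.17.0 at 95% identity over 100 bases or more. The floor of 3 counts covers counting error only, because without molecular identifiers several reads can stem from a single molecule.

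The 45 genes and all lists were chosen with earlier results of these data known. Genes given with full values were those past the fold cutoff and those with the smallest adjusted p of each role and direction, and for the other calls the values were added. Of the other lysosome genes, up to 5 per direction with the largest fold change among calls with a mean of at least 50 counts were named. Plbd2, Pla2g15, Hyal2, Igf2r, Litaf, Cd63 and Sidt2 were named outside this rule. Some genes counted in that list are not reported here by name.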

Additional observations from a re-analysis of the deposited data

How the results depend on the processing

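The calls of Cd68, Ctsf, Ctsa, Ctsl and Npc2 were kept in all 14 alternatives fitted for single genes, and that of Smpd1 in 13. DESeq2, limma-voom and a minimum of 10 counts in every library left all 42 genes with the same direction and side of the threshold, with 10 higher and 2 lower. With library size alone 6 were higher, 8 lower and 1 past the fold cutoff, the median log2 fold change was -0.20, and 18 other lysosome genes were lower; by construction it leaves out the composition factor. With the cutoff inside the test (glmTreat) 1 gene passed it. Same-numbered libraries had deviations from their group mean correlated by -0.083 for number 2 and -0.007 for number 3. If the repeated library is number 1, its correlation with Ctrl replicate 1 was 0.094. With 2 Confine libraries the deviations mirror each other, so these values cannot decide whether the numbers pair the libraries. With the replicate block (1 residual degree of freedom), 5 genes were higher, 2 lower and 1 past the cutoff, and 2 other lysosome genes were lower. With the block and the repeated library taken as number 1, 10 were higher and 5 lower, and 11 other lysosome genes were lower. With the identical columns counted as 2 libraries, 12 were higher and 6 lower, and 12 other genes were lower. Leaving out each library in turn gave 5 to 10 higher, 0 to 4 lower and 1 to 3 past the cutoff, 9 to 21 and 3 to 7 other lysosome genes higher and lower, and a median of -0.02 to 0.07. A fit without a Confine library has 1 left, which is assumed to vary like Ctrl.

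Directions turned only in genes that did not pass in the fit reported. Library size alone gave log2 fold changes of -0.11 for Ctsd, -0.17 for Hexa, -0.087 for Idua, -0.029 for Lamp2, -0.081 for Scarb2, -0.17 for Atp6v1b2 and -0.1 for Mitf. With the replicate block it was 0.046 for Lgmn, 0.063 for Atp6ap1 and 0.038 for Tfe3, and with the block and the repeated library as number 1, -0.012 for Idua, 0.17 for Lamp1 and 0.11 for Mcoln1. Leaving out each library gave -0.23 to 0.17 for Lgmn, -0.0087 to 0.2 for Ctsd, -0.047 to 0.41 for Idua, -0.18 to 0.17 for Lamp1, -0.13 to 0.35 for Scarb2, -0.17 to 0.12 for Mcoln1, -0.11 to 0.17 for Atp6v1b2, -0.19 to 0.044 for Atp6ap1, -0.18 to 0.062 for Tfe3 and -0.21 to 0.37 for Mitf. The cause of these moves was not tested. Ctsc, Ctsh and Ctss had too few counts to be tested, with at most 6 in any library.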
